A study of Caenorhabditis elegans with 9 samples.

Results

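The genes described here are the autosomal genes of Caenorhabditis elegans whose RNA was lower in embryos of smo-1 RNAi mothers and close to control in embryos of sdc-2(y93) mothers. They were chosen by their measured values. An autosomal gene was taken where its mean on the smo-1 RNAi arrays was lower than its mean on the control arrays by at least 1.0 log2 units, and where its mean on the sdc-2(y93) arrays lay within 0.3 log2 units of control. Each gene was read by its brightest probe set that matches 1 gene. The rule found 161 of 14722 autosomal genes measured, or 1.09%, out of 17118 genes in all. Both differences from control were therefore used to choose these genes, and the folds below describe them without testing them.

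Total RNA of mixed-stage embryos was hybridised to 9 Affymetrix arrays, 3 for each of 3 groups, all at 20 °C. The smo-1 RNAi embryos came from XX mothers of the wild-type strain N2 that were fed bacteria making smo-1 double-stranded RNA for 72 hours, after 24 hours as larvae on HB101 bacteria. The sdc-2(y93) embryos came from XX mothers carrying the sdc-2 allele y93 that were fed sdc-2 double-stranded RNA on the same schedule, according to the labels of the single samples. The growth protocol, shared by all samples, names only smo-1 as the target of the RNAi bacteria of both treated groups; those sample labels were followed, and the conflict is not settled by the sources used here. The control embryos came from XX N2 mothers kept for about 96 hours on bacteria with the empty vector L4440. The control mothers thus differed from both other groups in their time on RNAi plates as well as in the gene targeted, and feeding can act in the mother and in the embryo. The labels do not say that the 3 arrays of a group had separate cultures, so each p-value reflects only how far those samples vary, possibly for technical reasons.

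SUMO is a small protein that is joined to lysines of other proteins by an enzyme cascade and removed by specific proteases. smo-1 encodes the only SUMO of C. elegans, and SUMO is known there for roles in embryonic cell division, in chromatin and in transcription factor function. SDC-2 brings the dosage compensation complex to the X chromosomes of XX embryos and represses the male-determining gene her-1. Early embryos divide quickly on maternal RNA and proteins, then transcribe zygotic genes and later differentiate, so transcripts for DNA replication and mitosis are typical of young embryos.

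The smo-1 transcript had log2 signals of 7.91, 8.21 and 8.66 on the smo-1 RNAi arrays, 10.96, 10.74 and 10.94 on the sdc-2(y93) arrays and 11.96, 11.79 and 12.04 on the control arrays. It was 12.7-fold lower in smo-1 RNAi than in control embryos (−3.67 ± 0.16 log2, SE; limma adjusted p = 6.5e-08, n = 3 arrays each), and it was lower in sdc-2(y93) embryos too (−1.05 ± 0.16 log2; adjusted p = 9.4e-04). The sdc-2 probe set changed by −0.35 ± 0.16 log2 in sdc-2(y93) embryos, which did not pass the limma threshold (adjusted p = 0.14), while her-1 rose by 2.48 ± 0.10 log2 there (adjusted p = 4.2e-07). The hybridisation controls, transcripts meant to be added to the labelled sample, were far brighter on the 3 sdc-2(y93) arrays than on the control arrays. The differences were 7.54 log2 for cre and 5.48 log2 for bioD, against −0.17 and 0.00 log2 on the smo-1 RNAi arrays. On the control arrays cre was at 5.12 and bioD at 5.39, and on the smo-1 RNAi arrays at 4.95 and 5.39. Among control probe sets for other bacterial transcripts, taken here as not added, the highest median level was 6.21. It is thus not shown that cre and bioD were added to the control and smo-1 RNAi samples. For sdc-2(y93), the group and the way its arrays were run cannot be told apart. Array medians over all probe sets lay between 6.51 and 6.72.

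Among autosomal genes, 697 met the fall of 1.0 log2 in smo-1 RNAi embryos. Of these, 517 were also lower by 0.3 log2 or more in sdc-2(y93) embryos, 19 were higher there by as much, and the 161 genes described here lay between. Their difference between smo-1 RNAi and control ran from −2.311 to −1.001 log2, with a median of −1.16, which is 4.96-fold, 2.0-fold and 2.24-fold lower. The median over all autosomal genes was −0.02 log2, and −0.24 log2 over those brighter than the median gene. Falls of 1.5 log2 or more were found for 24 genes, and 95 genes had falls between 1.0 and 1.2 log2. In sdc-2(y93) against control embryos their differences ran from −0.299 to 0.29 log2, with a median of −0.09, and 49 genes were above 0 and the others below it. The median over autosomal genes was −0.01 log2, and −0.18 log2 for the brighter ones.

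**Figure D1:**
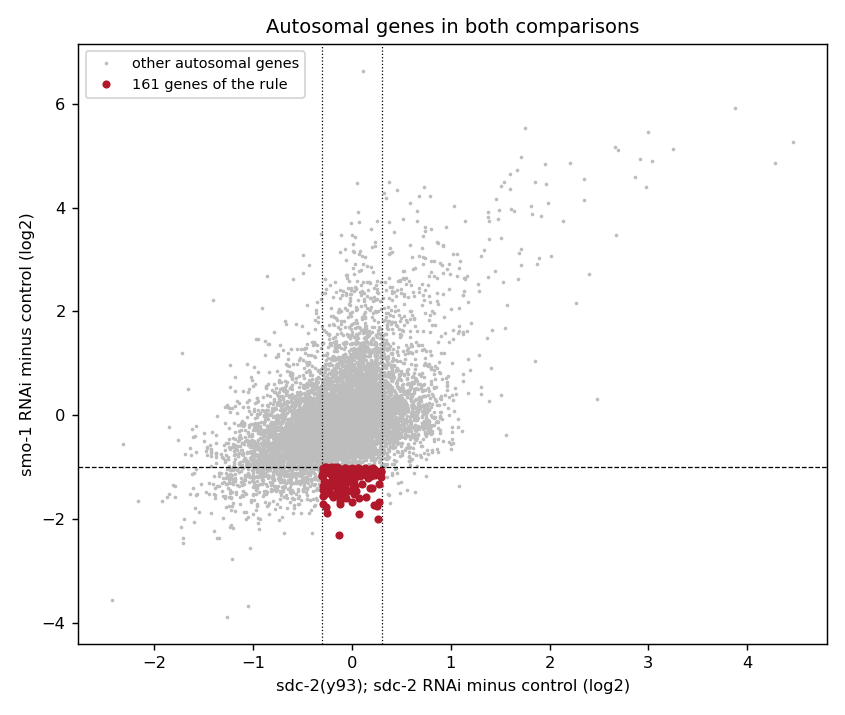
Each point is 1 autosomal gene: the difference between sdc-2(y93) and control (x axis, log2) against the difference between smo-1 RNAi and control (y axis, log2), as means of 3 arrays each. The 161 chosen genes (red) fill the box below −1.0 on the y axis (dashed) and between −0.3 and 0.3 on the x axis (dotted), with oac-51 lowest at −2.31.

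On single arrays, all 161 genes had their 3 smo-1 RNAi values below their 3 control values, which held for 31.3% of autosomal genes, and all 161 had them below their 3 sdc-2(y93) values, which held for 19.7%. The sdc-2(y93) values overlapped the control values for 132 of the 161. The rule favours such overlap, since it holds the sdc-2(y93) mean near control. No share over all autosomal genes was taken, so nothing is read from this overlap, here or in the gene groups below. By limma, all 161 were called lower in smo-1 RNAi against control, where 22.2% of all genes were called lower and 17.8% higher, and against sdc-2(y93) all 161 were likewise lower in smo-1 RNAi, as were 17.2% of all genes. The rule used these contrasts, so nothing is read from those counts. Both comparisons with control share the 3 control arrays. Between sdc-2(y93) and control, 15.6% of all genes were called lower and 10.9% higher. The chosen genes included 3 called lower there, dmd-5, set-1 and ceh-5, and 0 called higher. These calls move with the scaling: with arrays centred on the brighter autosomal genes, 14.6% of all genes were called lower and 29% higher in smo-1 RNAi, 8.65% lower and 40.3% higher in sdc-2(y93), and of the 161 genes 161 were still lower in smo-1 RNAi while 0 were lower and 30 higher in sdc-2(y93).

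**Figure D2:**
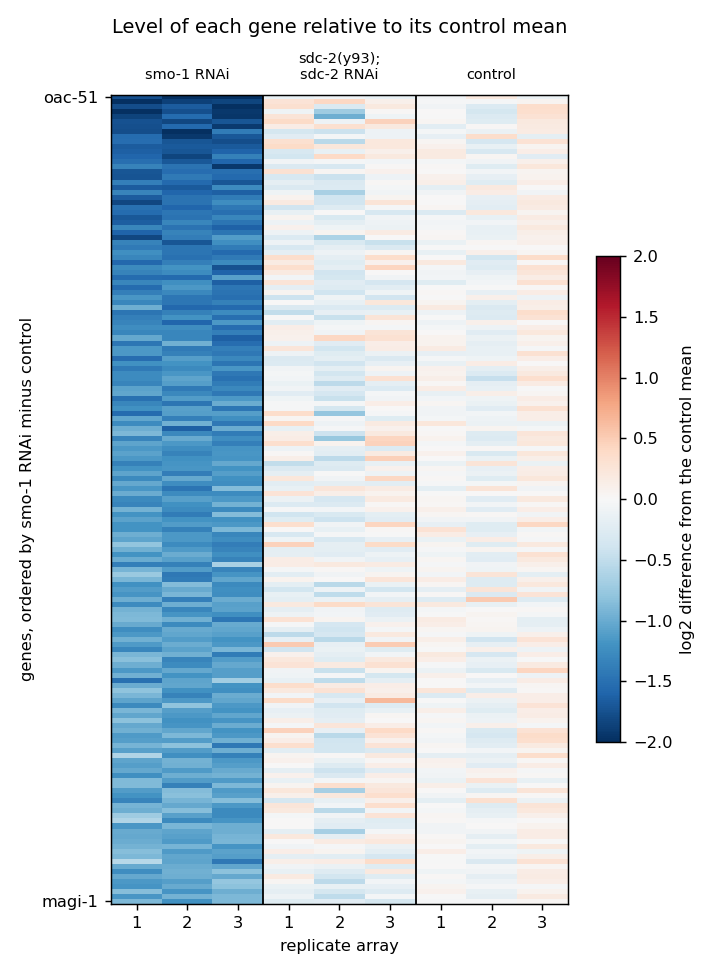
Each row is 1 of the 161 genes, ordered by its difference between smo-1 RNAi and control, and each column is 1 array. Colour gives the log2 difference from the gene's control mean: the 3 smo-1 RNAi columns are blue throughout, and within the sdc-2(y93) and control groups the second array is bluer than the third.

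Many of the genes stand close to a threshold. The limma standard error of a difference had a median of 0.14 log2 over these genes, and 0.12 over all genes. For 72 genes the fall was within 1 SE of 1.0, and for 75 the difference in sdc-2(y93) was within 1 SE of 0.3. Just inside the fall threshold stood magi-1 (−1.001), pold-1 (−1.004) and ubxn-2 (−1.005), and just outside stood gtnt-2 (−0.999), cogc-6 (−0.996) and cutl-18 (−0.995). Just inside the sdc-2(y93) threshold stood ptr-18 (−0.299), mau-8 (−0.299) and rhgf-2 (−0.298). Just outside it stood mom-2, a Wnt ligand, at −0.301, fbxb-116 at 0.302 and nra-4 at −0.306. With any 1 array left out, 68 of the 161 genes stayed in the set every time.

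By functions known from textbooks, 81 of the 161 genes were placed in 9 groups. The other 80 were placed in none, though some of them have known functions. The DNA replication and nucleotide group had 14 genes, with differences between smo-1 RNAi and control from −1.514 to −1.004 log2 (2.86-fold to 2.01-fold lower). For all 14 the sdc-2(y93) values overlapped the control values. In bulk RNA of embryos, fewer cells or young embryos that make a transcript and less of it in each cell cannot be told apart.

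tyms-1, for thymidylate synthase, which makes the thymidine nucleotide for DNA, had the largest fall of the group. Its log2 signals were 8.31, 8.49 and 8.57 on smo-1 RNAi arrays, 10.04, 9.57 and 10.03 on sdc-2(y93) arrays, and 9.98, 9.80 and 10.13 on control arrays. All 3 smo-1 RNAi arrays were far below every other array, while the sdc-2(y93) and control arrays interleaved (−1.51 ± 0.14 log2 in smo-1 RNAi, −0.09 ± 0.14 in sdc-2(y93), SE). thk-1, for thymidine kinase, another source of the same nucleotide, was lower by 2.24-fold in smo-1 RNAi embryos.

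The origin recognition complex marks where replication starts, and CDT-1 helps it load the MCM helicase. orc-1 and orc-4, which are adjacent among the measured genes of chromosome III, both belong to the set. orc-1 had 8.01, 7.62 and 7.51 on smo-1 RNAi arrays, 9.02, 8.50 and 9.11 on sdc-2(y93) arrays, and 8.94, 8.65 and 9.15 on control arrays. orc-4 had 6.94, 7.42 and 6.86 on smo-1 RNAi arrays, 8.29, 8.15 and 8.52 on sdc-2(y93) arrays, and 8.46, 8.21 and 8.48 on control arrays. In both genes the smo-1 RNAi arrays stood apart below the rest, by 2.29-fold for orc-1 and 2.48-fold for orc-4 on the means, and the other groups overlapped. cdt-1 was lower by 2.43-fold (−1.28 ± 0.14 log2), with −0.17 ± 0.14 log2 in sdc-2(y93).

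The helicase itself is a ring of MCM proteins, and mcm-2, mcm-3 and mcm-5 are in the set. mcm-2 had 8.63, 8.44 and 8.52 on smo-1 RNAi arrays, 10.29, 9.75 and 10.29 on sdc-2(y93) arrays, and 9.94, 9.56 and 10.29 on control arrays. The second array was the lowest of both the sdc-2(y93) and the control group, and still lay above all smo-1 RNAi arrays. mcm-3 and mcm-5 differed between smo-1 RNAi and control by −1.19 ± 0.14 and −1.03 ± 0.14 log2. All 3 are read by probe sets that may also bind similar transcripts. For mcm-3, another probe set gave −1.755 log2 in smo-1 RNAi and −0.426 log2 in sdc-2(y93), so it did not meet the rule. The other members of the ring were also lower in smo-1 RNAi embryos by limma, with differences of −1.44 ± 0.21 log2 for mcm-4 (adjusted p = 2.9e-04), −1.44 ± 0.17 for mcm-6 (adjusted p = 6e-05) and −0.92 ± 0.11 for mcm-7 (adjusted p = 5.6e-05). The rule left out mcm-4 and mcm-6 by their values in sdc-2(y93), −0.61 and −0.32 log2, and mcm-7 by the size of its fall.

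Behind the helicase, primase starts each new strand, and the polymerase clamp PCNA holds the polymerase on DNA. pri-1, for a primase subunit, had 7.80, 7.66 and 7.75 on smo-1 RNAi arrays, 9.11, 8.97 and 9.33 on sdc-2(y93) arrays, and 9.16, 8.91 and 9.26 on control arrays. Its smo-1 RNAi values were tightly grouped, and lay more than 1 log2 unit below the lowest control value. pri-2, the other primase subunit, was lower by 2.07-fold, pcn-1, for PCNA, by 2.05-fold, and pold-1, for the catalytic subunit of polymerase delta, by 2.01-fold. chaf-1, a subunit of the chromatin assembly factor that places histones behind the fork, was lower by 2.38-fold. A second probe set gave −0.44 log2 in smo-1 RNAi and 0.64 log2 in sdc-2(y93) for chaf-1, and another, for pri-2, gave −0.26 and 0.53 log2, so these probe sets did not meet the rule. The remaining pri-2 probe set gave −1.014 log2 in smo-1 RNAi and −0.465 log2 in sdc-2(y93), and did not meet the rule either. rif-1.1 completes the group at 2.13-fold lower.

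Mitosis and its checkpoints had 8 genes in the set, with differences between smo-1 RNAi and control from −1.51 to −1.01 log2, and the sdc-2(y93) values overlapped the control values for all 8. Several act in the spindle checkpoint, which holds anaphase until every kinetochore is attached. spdl-1, for Spindly, which recruits dynein to kinetochores, had 9.03, 8.87 and 8.71 on smo-1 RNAi arrays, 10.42, 10.24 and 10.22 on sdc-2(y93) arrays, and 10.29, 10.19 and 10.52 on control arrays. fzy-1, for the Cdc20 activator of the anaphase-promoting complex, had 8.91, 8.65 and 8.81 on smo-1 RNAi arrays, 10.00, 9.76 and 10.16 on sdc-2(y93) arrays, and 10.06, 9.67 and 10.20 on control arrays. The smo-1 RNAi arrays were lowest in both, 2.76-fold below control on the mean for spdl-1 and 2.28-fold for fzy-1. rod-1, of the kinetochore complex that spdl-1 works with, was lower by 2.25-fold, mdf-2, the Mad2 homolog, by 2.16-fold, and pch-2, an ATPase that remodels proteins of the Mad2 fold, by 2.85-fold. cdc-25.2 and wee-1.3, a phosphatase and a kinase that set the activity of the mitotic kinase in opposite directions, were both lower, by 2.18-fold and 2.01-fold. For cdc-25.2, a second probe set gave −1.69 log2 in smo-1 RNAi and −0.49 log2 in sdc-2(y93), so it did not meet the rule. That of rod-1 gave −1.51 and −0.13 log2, and met it. cyk-7 was lower by 2.37-fold, with a wide spread over sdc-2(y93) arrays (SD 0.57 log2).

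**Figure D3:**
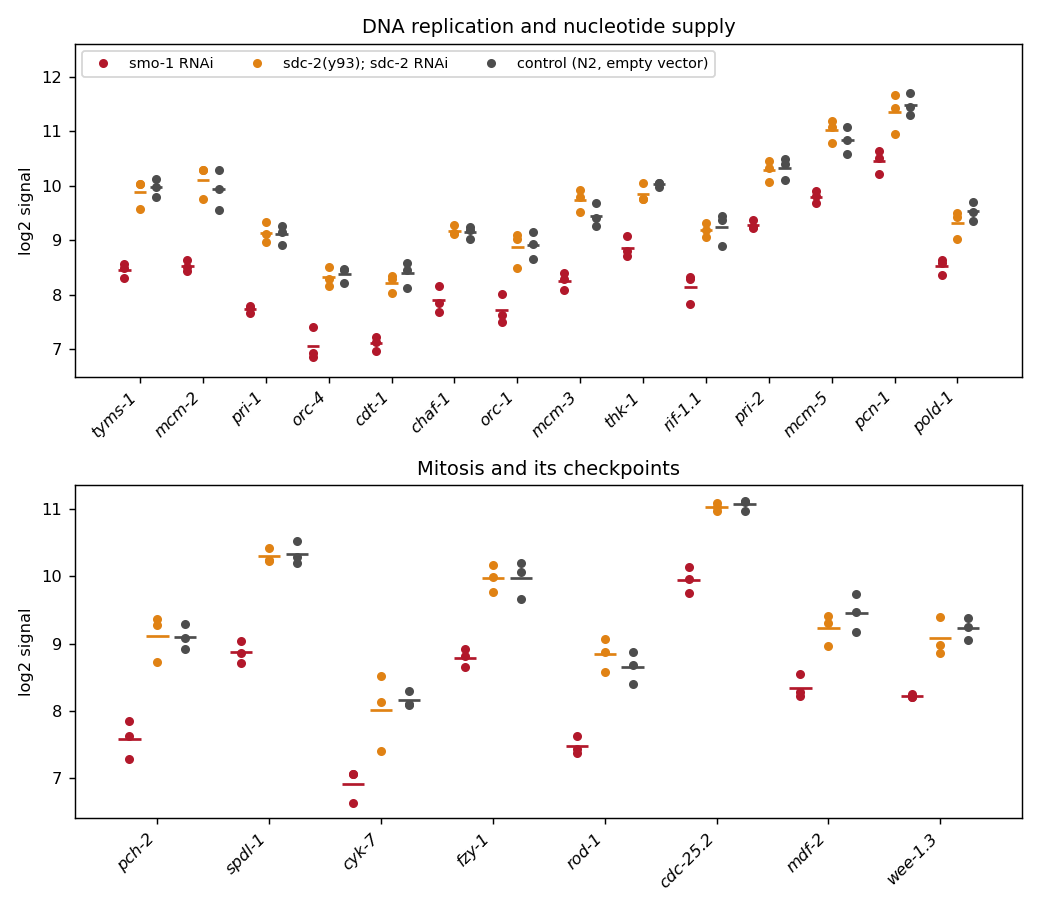
Points are single arrays (y axis, log2 signal) and bars are group means of 3 arrays, for the 14 replication genes (top) and the 8 mitosis genes (bottom), each with smo-1 RNAi, sdc-2(y93) and control from left to right. In each of the 22 genes the 3 smo-1 RNAi points lie below all others, while the sdc-2(y93) and control points overlap.

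These genes belong to a wider pathway. The list of cell cycle, replication and checkpoint genes, chosen with earlier results of these data known, had 47 genes measured, of which 10 are in the set. Genes of the set are left in the counts and medians of every list, here and below and under each scaling. The rule chose them as lower in smo-1 RNAi and near control in sdc-2(y93). Counts of lists that hold such genes are thus partly fixed by the rule. For comparison with this and the lists below, 22.2% of all genes were called lower and 17.8% higher in smo-1 RNAi embryos. The shares in sdc-2(y93) embryos were 15.6% lower and 10.9% higher. In smo-1 RNAi embryos 34 of the 47 were called lower and 0 higher by limma, with a median of −0.65 log2, against −0.00 over all genes. In sdc-2(y93) embryos 1 was lower and 10 were higher, with a median of 0.03 log2, against 0.02 over all genes. The list includes genes that barely differed in smo-1 RNAi, such as cdk-2 (0.01 ± 0.10 log2, adjusted p = 0.98) and cdc-25.1 (−0.07 ± 0.11, adjusted p = 0.69). It also includes gmn-1, for the CDT-1 inhibitor geminin, which was lower in both, at −1.97 ± 0.13 log2 in smo-1 RNAi (adjusted p = 8.7e-07) and −1.05 ± 0.13 in sdc-2(y93) (adjusted p = 2.2e-04).

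The kinetochore, spindle and passenger list had 32 of 41 genes called lower and 1 higher in smo-1 RNAi embryos, and 13 lower and 4 higher in sdc-2(y93) embryos, with medians of −0.73 and −0.25 log2. Only 2 of these genes, rod-1 and mdf-2, are in the set. Others were low in both, such as knl-3, a kinetochore scaffold subunit, at −1.52 ± 0.18 log2 in smo-1 RNAi and −1.57 ± 0.18 in sdc-2(y93) (adjusted p = 6.1e-05 and 1.5e-04). Condensin, cohesin and dosage compensation genes gave 0 members, although 18 of 23 were called lower in smo-1 RNAi embryos. Histone genes also gave 0 members, with 20 of 37 lower in smo-1 RNAi and 19 of 37 lower in sdc-2(y93) embryos.

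Transcription factors of development had 13 genes in the set, with differences between smo-1 RNAi and control from −1.77 to −1.01 log2. sea-1, a T-box factor known as an autosomal signal in the count of X chromosomes against autosomes, had the largest fall. Its values were 6.71, 7.03 and 6.63 on smo-1 RNAi arrays, 8.82, 7.59 and 8.48 on sdc-2(y93) arrays, and 8.55, 8.29 and 8.86 on control arrays. The sdc-2(y93) arrays spread over more than 1 log2 unit, yet the lowest of them was above every smo-1 RNAi array. ces-2, a bZIP factor that specifies the death of certain neurons' sisters, had 9.80, 9.60 and 9.72 on smo-1 RNAi arrays, 11.24, 11.26 and 11.25 on sdc-2(y93) arrays, and 11.27, 11.24 and 11.40 on control arrays. Its sdc-2(y93) arrays were nearly equal (SD 0.01 log2) and overlapped the control arrays, and its smo-1 RNAi mean was 3.02-fold below control.

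Factors that specify tissues were among them. elt-1, the GATA factor that specifies epidermis, had 8.59, 8.54 and 8.39 on smo-1 RNAi arrays, 9.94, 9.74 and 9.72 on sdc-2(y93) arrays, and 9.59, 9.53 and 9.63 on control arrays. Here the sdc-2(y93) arrays were all above the control arrays (0.22 ± 0.10 log2), a difference that did not pass the limma threshold (adjusted p = 0.13). pha-4, the FoxA factor of the pharynx, had 9.36, 9.08 and 9.14 on smo-1 RNAi arrays, 10.33, 10.27 and 10.01 on sdc-2(y93) arrays, and 10.34, 10.15 and 10.12 on control arrays, so that these last groups overlapped. The T-box pair tbx-8 and tbx-9, which act together in body shape, were lower by 2.03-fold and 2.11-fold and are adjacent among the measured genes of chromosome III.

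Neuronal and homeobox factors make up much of the remainder. egl-46, a zinc finger factor of neurons, was lower by 2.28-fold, ztf-11, a factor of neuron formation, by 2.14-fold, and unc-130, a forkhead factor, by 2.01-fold. For egl-46, a second probe set gave −0.70 log2 in smo-1 RNAi and 0.45 log2 in sdc-2(y93). Other ztf-11 probe sets gave −0.999 and −1.424 log2 in smo-1 RNAi, and 0.251 and −0.121 log2 in sdc-2(y93). Lower by 2.15-fold, 2.12-fold and 2.08-fold were the homeobox genes ceh-27, irx-1 and ceh-5. dmd-5, a DM-domain factor, had 7.35, 7.30 and 7.36 on smo-1 RNAi arrays, 8.43, 8.58 and 8.46 on sdc-2(y93) arrays, and 8.76, 8.75 and 8.77 on control arrays. Its 3 groups did not overlap, and its difference between sdc-2(y93) and control, −0.27 ± 0.08 log2, was called (adjusted p = 0.031) although it lay inside the rule's limit. Of 115 homeobox, T-box and bHLH genes measured, 44 were called lower and 8 higher in smo-1 RNAi embryos, and 22 lower and 14 higher in sdc-2(y93) embryos. The median of that list in smo-1 RNAi was −0.18 log2, and it was 0.02 with the arrays centred on the brighter autosomal genes. In the list of epidermis, muscle and posterior fate factors, 11 of 18 were called lower and 0 higher in smo-1 RNAi, against 4 lower and 5 higher in sdc-2(y93).

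The Wnt and Notch signalling group held 3 genes. sys-1, a β-catenin that acts with POP-1 in asymmetric divisions, had 7.93, 8.12 and 8.13 on smo-1 RNAi arrays, 9.94, 9.68 and 9.72 on sdc-2(y93) arrays, and 9.64, 9.58 and 9.69 on control arrays. Its smo-1 RNAi arrays were low together, 2.99-fold below control on the mean, and its sdc-2(y93) arrays overlapped the highest control array. A second, dimmer sys-1 probe set gave −0.87 log2 in smo-1 RNAi and 0.73 log2 in sdc-2(y93), so only the brighter one meets the rule. apr-1, the APC homolog of the same Wnt pathway, was lower by 2.02-fold, and dsl-2, of the Notch ligand family, by 2.09-fold.

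Adaptors that carry substrates to ubiquitin ligases were the group with the most genes, 15, with differences between smo-1 RNAi and control from −1.46 to −1.02 log2. They include 10 F-box genes of the fbxa, fbxb, fbxc and fbxl names, 3 of the btb name, bath-41 and ebax-1. fbxa-83 had 6.90, 7.17 and 7.04 on smo-1 RNAi arrays, 8.40, 8.55 and 8.66 on sdc-2(y93) arrays, and 8.53, 8.35 and 8.62 on control arrays. All of its smo-1 RNAi values were below the others, by 2.76-fold on the mean. fbxb-8 was lower by 2.64-fold and btb-8 by 2.63-fold, and ebax-1, the adaptor of a quality-control ligase in axon guidance, by 2.24-fold. Of the 432 genes of the F-box, MATH and BTB families, 101 were called lower and 86 higher in smo-1 RNAi embryos, with a median of −0.01 log2. These counts are near the shares over all genes, 22.2% lower and 17.8% higher. With arrays centred on the brighter autosomal genes, 70 were lower and 132 higher. In sdc-2(y93) embryos 25 were lower and 25 higher, and 11 were lower and 205 higher with that centring. Of the family's 411 autosomal genes, 116 were brighter than the median gene, and 12 are in the set. By name, the set holds 1 of 157 autosomal fbxa genes (0.637%) and 6 of 92 fbxb genes (6.52%), against 1.09% of autosomal genes. Only 19 of these fbxa genes but 42 of these fbxb genes were brighter than the median gene. The rule favours bright genes, so nothing is read from these shares.

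Early zygotic transcripts gave 6 genes, vet-2, vet-6, pes-10, sdz-9, sdz-14 and sdz-33, of families known for transcription early in the embryo's own expression. A second vet-2 probe set gave −1.69 log2 in smo-1 RNAi and −0.61 log2 in sdc-2(y93). For sdz-14, a second probe set gave −0.96 log2 in smo-1 RNAi and 0.92 log2 in sdc-2(y93). Neither met the rule. vet-6 had 8.14, 8.26 and 7.65 on smo-1 RNAi arrays, 10.25, 9.63 and 10.12 on sdc-2(y93) arrays, and 9.85, 9.65 and 10.28 on control arrays. Its smo-1 RNAi arrays were all lower, by 3.75-fold on the mean, and its other groups covered nearly the same range. pes-10, one of the earliest zygotic transcripts, was lower by 2.09-fold (−1.07 ± 0.18 log2), with 0.23 ± 0.18 log2 in sdc-2(y93). Of the 42 sdz, vet and pes genes measured, 21 were called lower and 2 higher in smo-1 RNAi embryos, and 5 lower and 5 higher in sdc-2(y93) embryos, where 2 were lower and 17 higher with arrays centred on the brighter autosomal genes. vet-1 and sdz-28 were lower in smo-1 RNAi (−1.44 ± 0.14 and −1.32 ± 0.14 log2, adjusted p = 1.7e-05 and 2.9e-05) and higher in sdc-2(y93) (0.56 ± 0.14 and 0.47 ± 0.14 log2, adjusted p = 0.014 and 0.031), which kept them out of the set.

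Maternal transcripts and regulators of RNA gave 9 genes. puf-3, for an RNA-binding protein of the Pumilio family, had 7.97, 7.70 and 7.76 on smo-1 RNAi arrays, 9.36, 8.76 and 9.26 on sdc-2(y93) arrays, and 9.28, 8.98 and 9.10 on control arrays. era-1, whose maternal RNA is known to be enriched at the anterior of the early embryo, had 6.97, 6.77 and 6.72 on smo-1 RNAi arrays, 8.82, 7.95 and 8.70 on sdc-2(y93) arrays, and 8.53, 8.16 and 8.79 on control arrays. In both genes the smo-1 RNAi arrays were lowest and the second sdc-2(y93) array was the lowest of the remainder. ergo-1, the Argonaute of a small RNA class made in oocytes and embryos, was lower by 2.63-fold, pup-3, a poly(U) polymerase, by 2.43-fold, and tiar-1, a TIA-type RNA-binding protein, by 2.41-fold. A second tiar-1 probe set gave −0.50 log2 in smo-1 RNAi and 0.66 log2 in sdc-2(y93). Also lower were sup-26 (2.58-fold), cpg-1 (2.13-fold), a chitin-binding eggshell proteoglycan, lst-1 (2.1-fold), a germline stem cell regulator, and etr-1 (2.01-fold). Of 37 genes listed as oocyte or early maternal, 20 were called lower and 6 higher in smo-1 RNAi embryos, and 3 lower and 11 higher in sdc-2(y93) embryos.

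Chromatin genes numbered 3. nasp-2, a homolog of the histone chaperone NASP, had 8.28, 8.51 and 8.34 on smo-1 RNAi arrays, 10.19, 9.56 and 10.29 on sdc-2(y93) arrays, and 10.28, 9.92 and 10.61 on control arrays. Its smo-1 RNAi arrays were 3.71-fold below control on the mean, the second array was again the lowest of both other groups, and its probe set may also bind similar transcripts. set-1, the enzyme that adds the first methyl group to lysine 20 of histone H4, a mark enriched on dosage-compensated X chromosomes, had 9.38, 9.26 and 9.23 on smo-1 RNAi arrays, 10.20, 10.04 and 10.22 on sdc-2(y93) arrays, and 10.38, 10.38 and 10.57 on control arrays. These 3 groups did not overlap, and the difference between sdc-2(y93) and control was called (−0.29 ± 0.10 log2, adjusted p = 0.046). ham-3, a subunit of SWI/SNF remodelling complexes, was lower by 2.21-fold. Of 33 repressive chromatin and synMuv genes measured, none is in the set, although 17 were called lower in smo-1 RNAi embryos and 12 in sdc-2(y93) embryos.

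Genes of the matrix, the cuticle and the secretory pathway numbered 10. sec-61.A, for the pore through which proteins enter the endoplasmic reticulum, was among the brightest of the set, with 11.41, 11.28 and 11.49 on smo-1 RNAi arrays, 12.42, 12.58 and 12.62 on sdc-2(y93) arrays, and 12.47, 12.37 and 12.40 on control arrays. Its groups other than smo-1 RNAi overlapped. sec-23, for a coat protein of vesicles that leave that compartment, was lower by 2.07-fold, and lam-3, a laminin α chain of basement membranes, by 2.26-fold. mig-17, a secreted metalloprotease that guides gonad migration, was lower by 2.9-fold, and col-131, a cuticle collagen, by 2.86-fold. Second probe sets gave −1.90 log2 in smo-1 RNAi and −0.11 log2 in sdc-2(y93) for lam-3, and −0.85 log2 in both for col-131. In the same order, they gave −1.135 and −0.348 log2 for sec-23, and −0.92 and −0.43 log2 for unc-50. Of 150 collagen genes measured, 16 were called lower and 30 higher in smo-1 RNAi embryos (22 and 22 with arrays centred on autosomal genes), and 38 lower and 2 higher in sdc-2(y93) embryos. glf-1 and pgm-3, enzymes that make sugar nucleotides for surface glycans, were lower by 2.44-fold and 2.27-fold. The group is completed by wrt-1 (2.07-fold), of the hedgehog-related genes, ptr-18 (2.27-fold), of the Patched-related genes, and unc-50 (2.01-fold), a Golgi protein.

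Among the 80 genes placed in none of the 9 groups stood the lowest differences of the set, and 49 of the 161 carry only a sequence name. oac-51, of a family of acyltransferase-like membrane proteins, had 8.44, 7.42 and 7.79 on smo-1 RNAi arrays, 10.04, 10.09 and 10.05 on sdc-2(y93) arrays, and 10.12, 10.38 and 10.08 on control arrays. It had both the largest fall, 4.96-fold, and the largest spread over smo-1 RNAi arrays (SD 0.52 log2), and even its highest smo-1 RNAi array was more than 1 log2 unit below the others. On a second, dimmer probe set oac-51 differed from control by −1.89 log2 in smo-1 RNAi and −0.79 log2 in sdc-2(y93), which does not meet the rule. M03D4.4 had 7.31, 7.73 and 7.76 on smo-1 RNAi arrays, 9.87, 10.02 and 9.70 on sdc-2(y93) arrays, and 9.58, 9.58 and 9.65 on control arrays, with the sdc-2(y93) arrays all above control. Falls above 3-fold in this group also included those of toe-2 (3.38-fold), K01A2.3 (3.34-fold), which is annotated as a pseudogene, and gana-1 (3.3-fold), a lysosomal galactosidase homolog. The brightest genes of the set in control embryos included W04A8.4, C35E7.5 and cht-5, lower in smo-1 RNAi by 2.25-fold, 2.13-fold and 2.17-fold. Second probe sets gave −0.76 log2 in smo-1 RNAi and −0.01 log2 in sdc-2(y93) for C35E7.5, and −1.01 and −0.54 log2 for cht-5. After oac-51, smo-1 RNAi arrays spread most for F56A8.8, prp-39 and npp-18 (SD 0.45, 0.41 and 0.40 log2).

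Markers of differentiated tissues moved the other way in the same smo-1 RNAi embryos. Intestine markers were called higher for 16 of 23 genes and lower for 2 (median 0.78 log2), pharynx markers for 13 of 20 and 1 (0.62), neuron markers for 15 of 30 and 2 (0.38), and body wall muscle markers for 15 of 25 and 4 (0.40). In sdc-2(y93) embryos the corresponding counts were 8 higher and 1 lower, 2 and 4, 3 and 4, and 9 and 5. With arrays centred on the brighter autosomal genes they were 11 higher and 1 lower, 7 and 3, 9 and 4, and 13 and 1, so that the balance turned for pharynx and neurons. The mean log2 signal of the intestine list was 9.70 to 9.71 on smo-1 RNAi arrays, 8.80 to 8.87 on sdc-2(y93) arrays and 8.53 to 8.76 on control arrays, and the pharynx list gave 9.34 to 9.48, 8.41 to 8.62 and 8.47 to 8.91. For neurons the ranges were 8.96 to 9.12, 8.53 to 8.76 and 8.52 to 8.84, and for muscle 11.34 to 11.48, 11.08 to 11.20 and 10.86 to 11.07. The cell cycle list gave 8.48 to 8.51 on smo-1 RNAi arrays, 9.14 to 9.34 on sdc-2(y93) arrays and 9.01 to 9.31 on control arrays. None of the 4 tissue lists holds a gene of the set. These lists mark the age and cell make-up of the embryos, and their part in the lower levels of the 161 genes was not tested.

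Markers from the mothers were dim. Of the 5 yolk genes, made in the adult intestine, 0 were called by limma in either direction in smo-1 RNAi or sdc-2(y93) embryos, with medians of 0.02 and 0.08 log2. The yolk list had mean signals of 5.59 to 5.68 on smo-1 RNAi arrays, 5.55 to 5.80 on sdc-2(y93) arrays and 5.60 to 5.63 on control arrays. Sperm genes were called higher for 9 of 72 and lower for 2 in smo-1 RNAi embryos, and their mean signals were 5.95 to 6.0 on smo-1 RNAi arrays, 5.86 to 5.98 on sdc-2(y93) arrays and 5.86 to 5.89 on control arrays. The mean levels of both lists lie under the 6.21 of the brightest bacterial control probe set whose transcript was taken as not added. A difference in RNA from the mothers could thus be missed. The 3′ minus 5′ difference of actin was larger than in control by 0.66 log2 on smo-1 RNAi arrays and by 0.80 log2 on sdc-2(y93) arrays, and that of GAPDH differed by −0.26 log2 on smo-1 RNAi arrays and 0.52 log2 on sdc-2(y93) arrays. For catalase the difference from control was 0.86 log2 on smo-1 RNAi arrays, the largest of the 4 transcripts there, and −0.08 log2 on sdc-2(y93) arrays, and for ubiquitin it was 0.32 and 0.34 log2. The part of RNA quality was not tested.

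**Figure D4:**
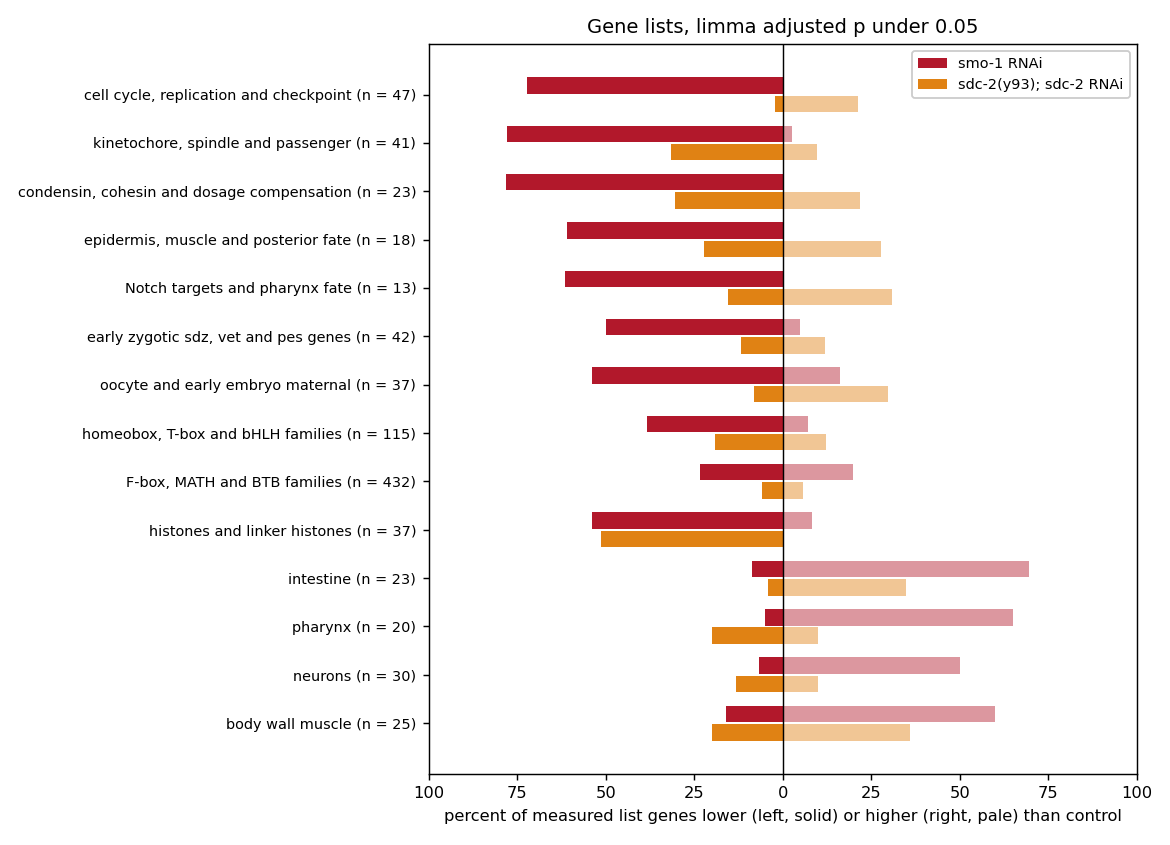
Bars give the percentage of each list's measured genes called lower (left, solid) or higher (right, pale) than control by limma, smo-1 RNAi above sdc-2(y93). The cell cycle list has 34 of 47 genes lower in smo-1 RNAi and 1 of 47 in sdc-2(y93). The 4 tissue lists at the bottom lie mainly to the right in smo-1 RNAi. Each list is counted with its genes of the set.

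With arrays centred on the brighter autosomal genes, more genes of these lists were still lower than higher in smo-1 RNAi embryos, with 26 lower and 2 higher for the cell cycle list, 27 and 2 for the kinetochore list, 8 and 0 for the epidermis, muscle and posterior list, 17 and 5 for the sdz, vet and pes genes, and 15 and 7 for the maternal list. In sdc-2(y93) embryos the balance turned with that scaling for the kinetochore list, to 6 lower and 11 higher, and for the homeobox, T-box and bHLH list, to 4 lower and 46 higher. Repressive chromatin and synMuv genes turned there too, to 9 lower and 15 higher. The cell cycle list had 1 lower and 24 higher there, the maternal list 2 and 21, the epidermis, muscle and posterior list 3 and 10, the histone list 12 and 5, and the collagens 23 and 14.

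The chosen genes were bright. In all, 158 of the 161 (98.1%) had a mean signal above the median gene, against 48.6% of autosomal genes. A dim gene has little room to fall, so the rule itself favours bright genes, and nothing is read from this share. Over the 161 genes, group means ran from 5.13 to 11.4 log2 on smo-1 RNAi arrays, from 6.08 to 12.54 on sdc-2(y93) arrays and from 6.24 to 12.41 on control arrays. On the smo-1 RNAi arrays 13 genes were at or under the level of the brightest bacterial control probe set, against 0 on the control arrays. Protein-coding genes numbered 159, and pseudogenes 2. Their median span in the annotation, 2506 bases, was close to that of the brighter autosomal genes, 2566 bases, and above that of all autosomal genes, 2108 bases.

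Their types of probe set were also compared with those of all autosomal genes. Probe sets of the _s_ kind, whose probes can match several transcripts, read 73 of the 161 genes (45.3%), against 21.4% of autosomal genes, and 84 (52.2%) were read by a probe set for 1 transcript, against 75.0%. A further 4 (2.48%) were read by the _x_ kind, which can cross-hybridise, against 3.67%. These autosomal shares were not matched for brightness, so nothing is read from the differences. Another probe set existed for 31 of the genes, 35 in all. Their difference between smo-1 RNAi and control had a median of −0.96 log2 and ran from −1.90 to 0.35, with 28 at −0.5 or lower and 15 at −1.0 or lower. Values above 0 came from 2 of them, for T24H7.2 (0.02) and etr-1 (0.35). In sdc-2(y93) against control the same probe sets ran from −0.94 to 1.15 log2, and 13 lay within 0.3, 13 at −0.3 or lower and 9 at 0.3 or higher. Both parts of the rule were met by 6. Most of these probe sets were lower in smo-1 RNAi, and 13 of 35 were close to control in sdc-2(y93). The share of all probe sets past these cut-offs was not taken, so nothing more is read from the counts.

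**Figure D5:**
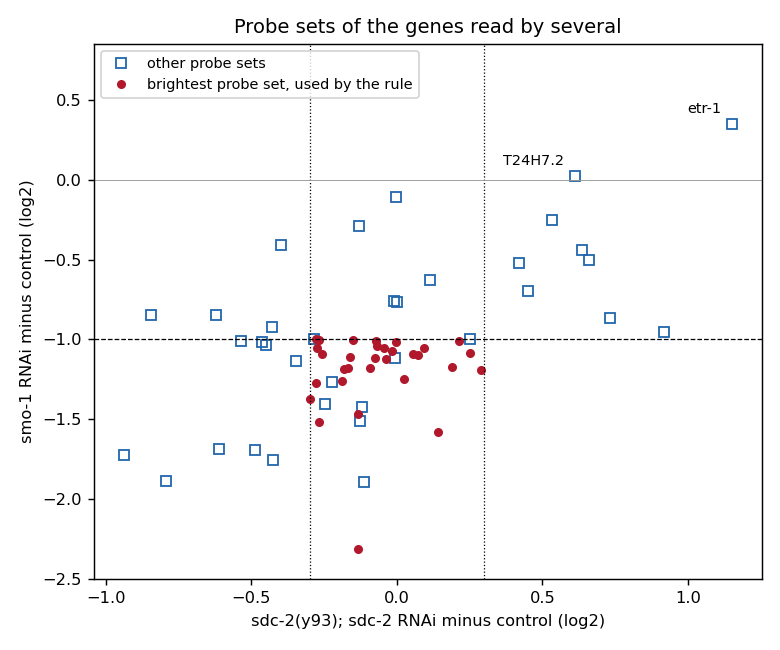
For the 31 genes read by more than 1 probe set, the difference between sdc-2(y93) and control (x axis, log2) is set against that between smo-1 RNAi and control (y axis, log2), for the brightest probe set (filled circles) and the 35 others (open squares). The others spread from −0.94 to 1.15 along the x axis, and 2 of them, for T24H7.2 and etr-1, lie above 0 on the y axis.

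The genes lay on all 5 autosomes: 32 on chromosome I (19.9% of them, against 16.8% of autosomal genes), 36 on II (22.4% against 20.5%), 28 on III (17.4% against 15.3%), 37 on IV (23% against 18.1%) and 28 on V (17.4% against 29.3%). Among brighter autosomal genes chromosome V holds 19.6%. Genes next to each other were more frequent than over autosomal genes at large: 18 of the 161 (11.2%) had another gene of the set as the nearest measured neighbour on either side, against 2.15% of autosomal genes, and 45 (28%) had one within 5 measured genes, against 9.71%. The 9 neighbouring pairs were orc-1 and orc-4, tbx-9 and tbx-8, aat-1 and elt-1, gana-1 and R07B7.10, pes-10 and Y46G5A.28, sdz-33 and fbxb-24, npp-18 and F56A8.8, dnj-17 and T03F6.3, and F33H2.3 and F33H2.8. The autosomal share was not matched for brightness, and no test of nearness was made. In 5 of the pairs the members' differences between sdc-2(y93) and control had opposite signs.

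Within a group, the arrays differed too. The rule used the group means, so a high value on any control array enlarged a gene's fall and favoured its choice. The deviations and SDs below are therefore not independent of the rule, and nothing is read from them. For the 161 genes the median deviation from the group mean was 0.02, 0.00 and −0.03 log2 on the smo-1 RNAi arrays, 0.05, −0.12 and 0.10 on the sdc-2(y93) arrays, and 0.00, −0.13 and 0.12 on the control arrays. Brighter autosomal genes at large gave −0.01, −0.02 and 0.02 on the control arrays and 0.01, −0.09 and 0.08 on the sdc-2(y93) arrays. On the second control array 39 of the 161 genes were above their group mean, and on the third 127. On the sdc-2(y93) arrays the same counts were 44 on the second and 117 on the third. On the smo-1 RNAi arrays they were 95, 80 and 72. The median SD of the genes was 0.16 log2 on smo-1 RNAi arrays, 0.17 on sdc-2(y93) arrays and 0.16 on control arrays, against 0.14, 0.17 and 0.12 over brighter autosomal genes.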

How the data were processed

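Per the submitters' processing notes, the deposited log2 signals come from RMA run in Affymetrix Expression Console, with version and options not given in the sources used here. Because RMA equalises array distributions, a shift common to every transcript is invisible. Of 22625 probe sets, 20766 had 1 gene in the platform annotation, and 20701 of these were found in a RefSeq gene table, which gave symbols and chromosomes. The 77 manufacturer controls, 887 probe sets of several genes and 895 unlisted ones gave no gene, and 33 genes had no RefSeq match. Each of 17118 genes was read by the probe set brightest on average over 9 arrays. Groups came from the sample titles.

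limma 3.58.1 in R 4.3.3 (lmFit, eBayes, 9 arrays, 6 residual degrees of freedom, no covariate) gave two-sided p-values adjusted by Benjamini-Hochberg over all genes, with a threshold of 0.05. Errors of differences are its standard errors, and the script was tested on simulated data. No set test was run. The members and the gene lists were chosen with earlier results of these data known, and the groups by function were made after the members' values were seen. Genes named by rule were the targets, the 15 lowest members of single-transcript probe sets, up to 4 members of each list, those nearest each threshold, and those brightest, most variable or adjacent; others named are members of the functional groups or list genes picked after their values were seen. Replicate numbers were checked as pairs: deviations of same-numbered smo-1 RNAi and control arrays correlated at 0.07, −0.16 and −0.17, and those of sdc-2(y93) and control at 0.07, 0.38 and 0.28; as neither had every value over 0.1, they were not treated as pairs. Alternatives covered probe sets, scaling, filters, thresholds, fits and left-out arrays.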

Additional observations from a re-analysis of the deposited data

Results flagged for a closer look

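The hybridisation controls, which belong to no comparison above, were brighter on the sdc-2(y93) arrays than on the control arrays by 7.54 log2 for cre (12.66 against 5.12) and by 5.48 log2 for bioD (10.87 against 5.39). They were picked out as a signal outside the main measurement that stood above its level in control. On the smo-1 RNAi arrays cre was at 4.95 and bioD at 5.39. The closeness of the 161 genes to control in sdc-2(y93) embryos rests on the same 3 arrays, and the part of this difference in it was not tested.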

How the results depend on the processing

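The rule gave 93 genes without probe sets that can bind related transcripts (87 shared with the 161, of which 103 were still measured), 282 with arrays centred on autosomal genes (151 shared), and 125 when centred on the brighter ones (53 shared). It gave 24 at a fall of 1.5, 313 at 0.8, 107 at an sdc-2(y93) limit of 0.2, and 276 at 0.5. With 1 array left out it gave 143 to 184, of which 116 to 150 were among the 161; the fewest came without the third control array. The centring on brighter genes moved the median of all genes by 0.20 log2 in smo-1 RNAi and by 0.26 log2 in sdc-2(y93), and centring on autosomal genes by −0.13 and 0.07. With the brighter centring, the 161 genes had medians of −0.96 and 0.17 log2, and 30 were called higher in sdc-2(y93). The share of called genes that were lower was 55.5% in smo-1 RNAi and 59.0% in sdc-2(y93), and became 68.3% and 49.5% with autosomal centring, and 33.4% and 17.7% with the brighter one. The share of genes above the median signal was 94.0% (autosomal centring), 100% (only brighter genes, or a fall of 1.5) and 93.3% (a fall of 0.8), and 96.7% to 98.3% with 1 array left out; that on chromosome V was 16.8% to 21.7%. All 161 were called lower in smo-1 RNAi with any array left out, and 98 without the related-transcript probe sets. List genes called lower numbered 471 in smo-1 RNAi and 244 in sdc-2(y93). Without those probe sets they were 304 and 147; in sdc-2(y93) they were 130 with the brighter centring and 146 at an adjusted p of 0.01. With 1 array left out they were 397 to 509 and 189 to 244. The sdc-2(y93) list counts under probe set and scaling settings other than autosomal centring were chosen after seeing the data. The fit with the replicate number as a block gave 161 members called lower, and 470 and 246 list genes; other calls were not compared. Without related-transcript probe sets cogc-6 reversed, to 0.13 log2, on another probe set. Promoter motifs and protein similarity were not run, as no sequence was used here. The number of arrays and the dim signal of 13 genes on smo-1 RNAi arrays limit the precision. The causes of these moves were not tested.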
